A study of Rattus norvegicus with 24 samples.

Results

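Circadian clock genes were examined in the rat hypothalamus: Per1, Per2, Per3, Dbp, Tef, Hlf, Nr1d2, Bhlhe40, Rora and Npas2. Every probe set to which the platform table gives exactly 1 of these 10 symbols was taken, which gave 20 of the 31099 probe sets on the array and 10 of the 14217 genes. Of the 10 genes, 6 had over 1 probe set. The animals were 18 male Wistar rats aged 7 weeks, 6 in each of 3 groups. One group was held in wire mesh restraint for 2 h while 20 µL of (R,S)-linalool, the racemic form of a scented monoterpene alcohol, evaporated into a 40 L box. Another was restrained for the same time with no odour, and the controls were neither restrained nor exposed to the odour. Restraint ran from 10:00 to 12:00 under a light period that began at 8:00, and the hypothalamus was cut out as a block directly afterwards. Each array held the RNA of 1 rat. The order in which the rats of the 3 groups were killed was not used here.

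The circadian clock is a loop of transcription with a period of about a day. The activators CLOCK and BMAL1, or NPAS2 in the place of CLOCK, bind E-box elements and switch on the Period and Cryptochrome genes, whose proteins return to the nucleus and block the activators. A second loop runs through the nuclear receptors of the REV-ERB family (Nr1d1 and Nr1d2), which repress, and of the ROR family (Rora), which activate the same elements. The outputs Dbp, Tef and Hlf encode related bZIP activators of D-box elements, and Bhlhe40 encodes DEC1, a repressor at E-boxes. In the hypothalamus the suprachiasmatic nucleus sets the phase for the body, while other hypothalamic cells carry clocks of their own. Per1 has an additional input: the glucocorticoid receptor and cyclic AMP signalling both act on it directly, so that adrenal hormone can raise it apart from its daily rhythm.

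Promoter sequence from RefSeq (rat assembly GRCr8) was given for 9 of the 10 genes, and the 250 bases before each start were searched on both strands. The stretches printed here are those that hold the elements through which the loop acts, with the matched letters in capitals and each read 5′ to 3′ on the strand of the gene. Per2 has a D-box match (TTATGTAA) beginning at position -192 and a non-canonical E-box match (CACGTT) beginning at position -62, within chr9:99497044-99497193 on the minus strand. Tef and Bhlhe40 each have 1 canonical E-box match (CACGTG), beginning at positions -198 and -220, within chr7:115206597-115206676 and chr4:143174200-143174279 on the plus strand.
Per2: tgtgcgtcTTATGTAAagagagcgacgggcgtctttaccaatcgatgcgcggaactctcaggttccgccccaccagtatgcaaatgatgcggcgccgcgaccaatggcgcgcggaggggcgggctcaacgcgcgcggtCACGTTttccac
Tef: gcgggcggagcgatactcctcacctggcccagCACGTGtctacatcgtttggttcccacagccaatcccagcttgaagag
Bhlhe40: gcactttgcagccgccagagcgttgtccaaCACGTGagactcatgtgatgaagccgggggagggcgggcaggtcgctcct
CACGTG occurs in 5.59% of all 33469 promoters of this length, CACGTT in 4.07% and TTATGTAA in 0.828%. No match was found in the windows of these 9 genes for the other D-box spelling (TTACGTAA), for the ROR element cores TAGGTCA and TGGGTCA, for the cyclic AMP response element TGACGTCA or for the palindromic glucocorticoid response element. Those letters occur in 0.108%, 2.26%, 3.44%, 1.59% and 0.373% of all promoters, and these windows are short and cover 1 start per gene.

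The deposited values are log2 signals, and the authors normalized the arrays in 2 sets of 12: restraint with control, and linalool plus restraint with the same restraint arrays again. Each comparison stayed inside its set. The spread between arrays differs between probe sets by orders of magnitude. The residual SD is the spread of arrays around their group means. It was below 0.01 for 80.9% of all genes in the first set and for 81% in the second. Such genes are called compressed, since the size of their log2 differences cannot be read. Differences are therefore also given in residual SDs. A difference of 2 means of 6 arrays has a standard error of 0.577 residual SDs. Among the 10 genes, Tef was compressed in the first set, and Per3 and Nr1d2 in the second. The scale of a single gene changed with the set: over the same 6 restraint rats the SD of Per3 was 813 times as large in the first set as in the second, that of Nr1d2 909 times, and that of the Tef probe set only 0.000606 times. The values of the 6 rats correlated between the sets with r of 0.894 for Per3, 0.975 for Nr1d2 and 0.936 for Tef, a description of 6 arrays processed in both ways. Array medians lay between 8.131 and 8.19. In the first set 1 of 57 array control probe sets differed between the groups. In the second 17 were higher and 10 lower with linalool. Which of these control probe sets read RNA of the tissue was not examined. Odour and array processing cannot be told apart in that set. In blocks of tissue, fewer cells of a type and less RNA per cell cannot be told apart either.

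Restraint was compared with no restraint first, which asks what a stressor of this length does to clock transcripts. The hour at which the controls were killed was not used here, so time of day cannot be told apart from restraint. Per3 fell, Per1 stood above the controls in every rat without passing the threshold, and the D-box activators, Rora and Npas2 gave no call. Of the 10 genes 1 passed (limma, adjusted p below 0.05 over all 14217 genes), against 0.71% of all genes, with 0.485% called higher and 0.225% called lower. Groups that did not overlap were seen for 2 of the 10 genes, Per1 and Per3, against 1.86% of all genes. In 8 of the 10 the mean was lower after restraint, with a median difference of -0.6 residual SDs beside 0.11 for all genes.

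**Figure D1:**
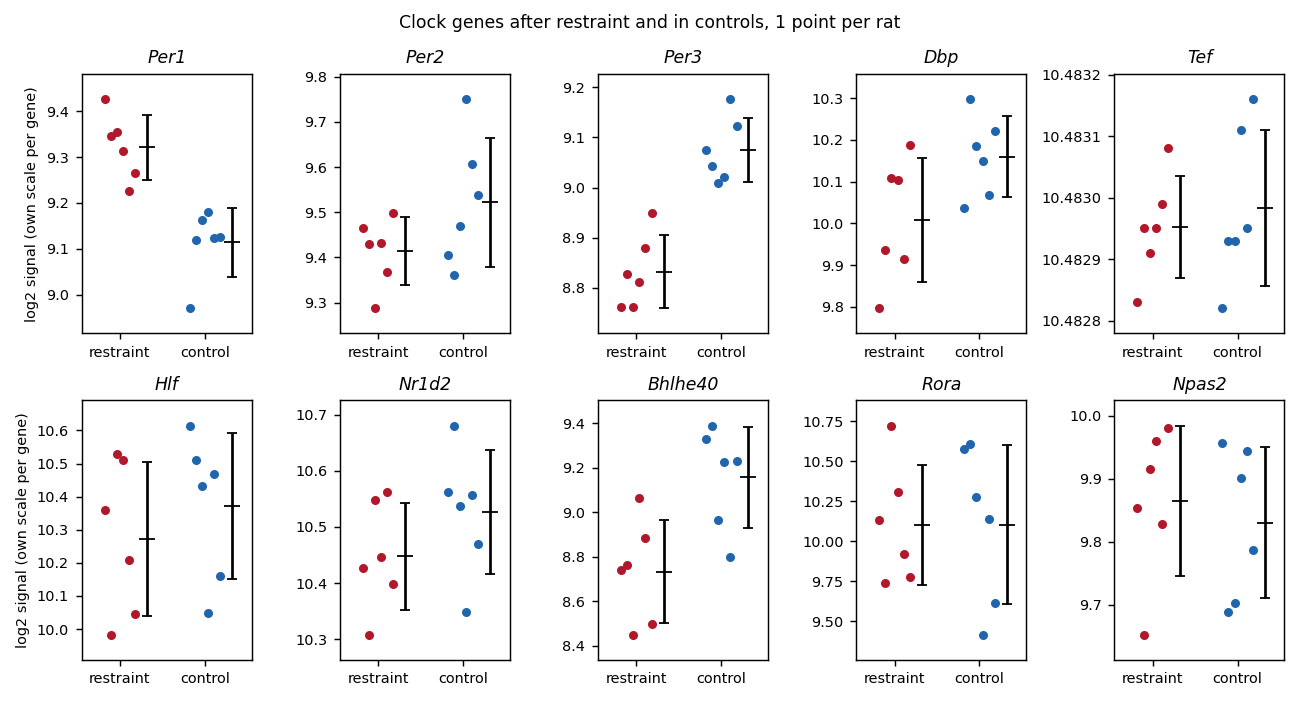
Log2 signal (vertical axis, a separate scale for each gene) of the probe set that stands for each of the 10 clock genes, in 6 rats after restraint (red) and 6 controls (blue), 1 point per rat, with bars for mean and SD. Per1 is above all controls in the restrained rats and Per3 below all of them, while the other 8 genes overlap. Tef is compressed, as its narrow axis shows.

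Per3 encodes the Period protein least needed for the rhythm itself and is read as an output of the loop. Its log2 signal (probe set 1378745_at) was 8.76 at the lowest, 8.82 at the median and 8.95 at the highest in restrained rats, against 9.01, 9.06 and 9.18 in controls. Every restrained rat was below every control. Means were 8.83 ± 0.0725 after restraint and 9.07 ± 0.0643 in controls (SD, n = 6 each). The difference was -0.24 on the log2 scale (SE 0.0389, limma adjusted p = 0.0264), or -3.54 residual SDs. Controls 5 and 6 held the highest Per3 values, 9.18 and 9.12. They also held the highest scores of 12 meningeal markers, as given below. With both left out, a fit chosen after the data were seen, the difference was -3.42 residual SDs and the limma adjusted p = 0.133. That fit called 3 of all 14217 genes, against 101 in the main fit, and Per3 lost its call. The call was also lost in 7 of the 12 fits that left out 1 array: controls 1, 5 and 6 (limma adjusted p = 0.0546, 0.059 and 0.0647) and restrained rats 1, 3, 4 and 5 (0.0707, 0.0629, 0.0633 and 0.0605), with the size between -4.58 and -3.32 residual SDs over all 12. The other Per3 probe set, compressed and at a signal of 7.65 in both groups, differed by -0.261 residual SDs (limma adjusted p = 0.847 over all probe sets).

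Per1 is the immediate early member of the family, induced by light and by adrenal steroids. Restrained rats had a log2 signal (probe set 1374855_at) of 9.23 at the lowest, 9.33 at the median and 9.43 at the highest, against 8.97, 9.13 and 9.18 in controls. All 6 restrained rats were above all 6 controls, and control 1 was the lowest array. The means were 9.32 ± 0.0708 after restraint and 9.11 ± 0.0745 in controls, a difference of 0.21 (SE 0.0412) with a limma adjusted p of 0.0563. That difference amounts to 2.86 residual SDs. Per1 passed the threshold with arrays centred on their medians (adjusted p = 0.0437), with quantile normalization (0.0497) and when only genes above the median level were tested (0.0428). In none of the 12 fits without 1 array did it pass, with adjusted p between 0.063 and 0.117.

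Per2, the Period gene whose loss in mice most disturbs the rhythm, went the way of Per3 in its mean but overlapped. Its signals were 9.29, 9.43 and 9.50 (lowest, median and highest) after restraint and 9.36, 9.50 and 9.75 in controls, and control 4 was the highest. The difference was -0.11 with a 95% interval from -0.25 to 0.04 (limma adjusted p = 0.418). The other Per2 probe set was compressed and differed by 0.556 residual SDs (adjusted p = 0.648 over all probe sets).

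Because Per1 also answers glucocorticoids, its change was set against that of every other gene by a test of the difference, after dividing each gene by its own SD over the 12 arrays. By limma Per1 stood above 8 of the 9 other members, all but Npas2, where 53.8% of all 14216 other genes lay below Per1 as well. Its distance from Per3 was 3.32 SDs (SE 0.639, limma adjusted p = 0.000161), from Bhlhe40 2.98, from Dbp 2.67, from Per2 2.50 and from Nr1d2 2.35. Rora and Npas2 were nearest, at 1.63 and 1.31 (limma adjusted p = 0.0245 and 0.0684). The same Per1 values enter every difference, and limma gave all genes 1 common variance in place of their own. For the members its p-values are too small. For genes that run closely with Per1 the common SE can instead be too wide. With an ordinary t, chosen after the data were seen, 7 members passed and 34.2% of all genes did. Per3 then had an adjusted p of 0.00463, Tef 0.0457, Hlf 0.049, Rora 0.104 and Npas2 0.181.

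Genes that glucocorticoids are known to induce stood beside Per1. The list was chosen with earlier results of these data known. Of 11 measured, 5 rose, none fell and 6 did not pass, where 0.485% of all genes were called higher. The median was 2.47 residual SDs, beside 0.11 for all genes. All 11 means were higher after restraint, as were 7777 of all 14217. Sgk1, a kinase induced by corticosteroids, and Klf9, a transcription factor induced by them, rose by 4.63 and 4.48 residual SDs (limma adjusted p = 0.0117 and 0.0123). Without controls 5 and 6 neither passed, at 4.20 residual SDs for Sgk1 (limma adjusted p = 0.0795) and 4.54 for Klf9 (0.0652). Fkbp5, which dampens the glucocorticoid receptor, and Tsc22d3, which encodes the anti-inflammatory protein GILZ, differed by 2.46 and 2.47 residual SDs without passing (adjusted p = 0.0901 for both), and Fkbp5 passed without control 4 (3.59, adjusted p = 0.0389). Per1 at 2.86 residual SDs lay between them and the genes that passed. By the test of the difference, Per1 minus Sgk1 was -0.167 SDs, Per1 minus Klf9 -0.159, Per1 minus Fkbp5 0.0761 and Per1 minus Tsc22d3 0.0754 (SE 0.639 each). Those 4 differences did not pass (limma adjusted p = 0.809, 0.818, 0.912 and 0.913). Their SE, the common one, was too wide to show that the genes moved alike. The SD that divides each gene also includes its group difference, which caps the change that a gene can show. All 7654 genes that differed from Per1 lay below it, and a gene that rose more than Per1 could hardly be called. Immediate early genes of neuronal activity were set beside Per1 as well, since cyclic AMP signalling acts on many of them. Of 10, of which Dusp1 is also on the glucocorticoid list, none passed, and 4 had an unadjusted p under 0.05, as did 2270 of all 14217 genes. Only Arc had groups that did not overlap, lower after restraint (-1.96 residual SDs, limma adjusted p = 0.158), where 1.86% of all genes had such groups. Of the means 4 were higher and 6 lower. Fos and Nr4a1 stood at -0.758 and -1.28 residual SDs (limma adjusted p = 0.519 and 0.304). Per1 stood above Fos by 2.35 SDs and above Nr4a1 by 2.71 (limma adjusted p = 0.00137 and 0.000343). These p-values rest on the same common variance, and no ordinary t was read for these genes.

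**Figure D2:**
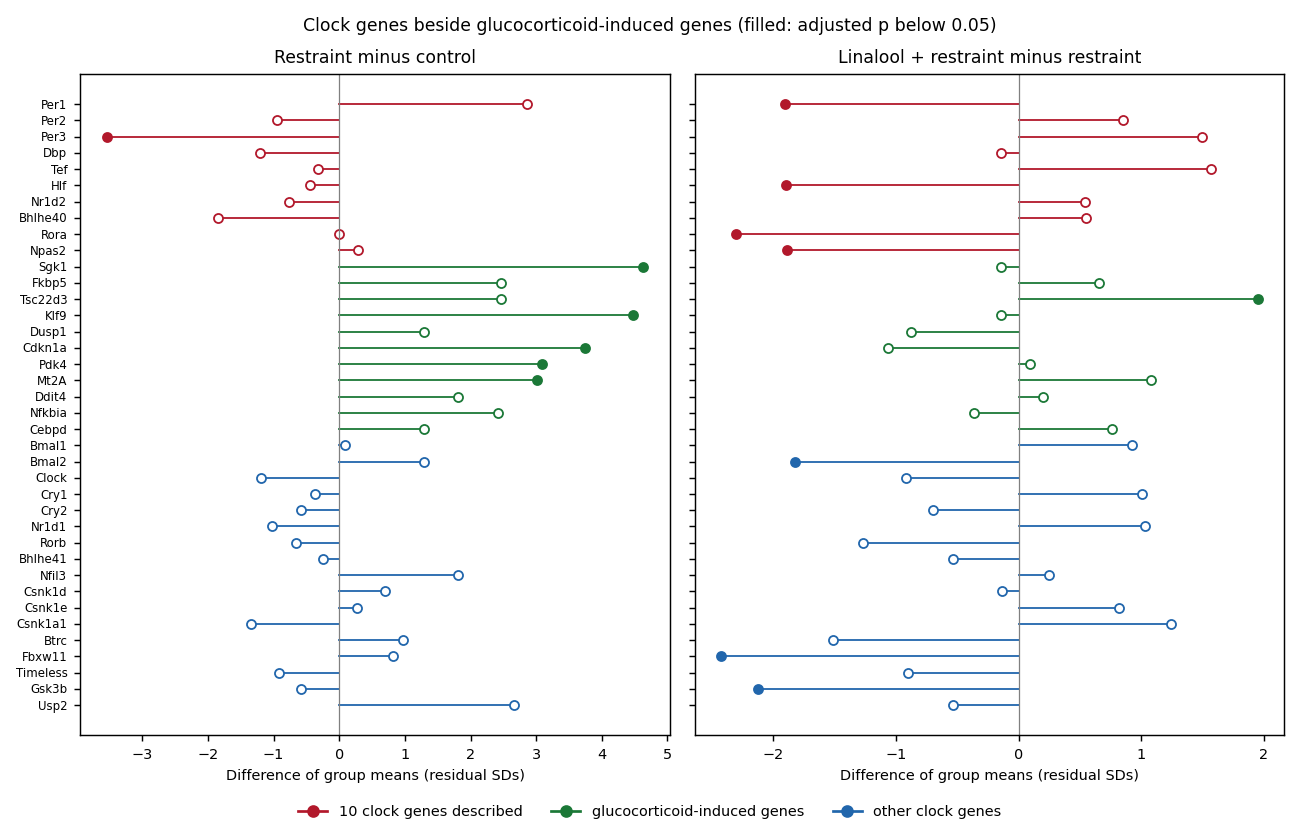
Difference of group means in residual SDs (horizontal axes) for the 10 clock genes (red), 11 glucocorticoid-induced genes (green) and 17 other clock genes (blue), for restraint minus control on the left and linalool plus restraint minus restraint on the right. Filled points have a limma adjusted p below 0.05. Per1 lies among the glucocorticoid-induced genes on the left at 2.86 residual SDs, and at -1.90 on the right.

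The genes most like Per1 in pattern over the 12 arrays of this set were Sgk1 (Pearson r = 0.94), Tob2 (0.934), Tle3 (0.923), Errfi1 (0.914) and Bcl6 (0.912). For Per3 they were Irf8 (0.951), Hhex (0.938), Rybp (0.93), Pfkfb3 (0.927) and Ier5 (0.926). Per1 and Per3 ran opposite to each other (r = -0.879). These correlations describe 12 arrays in 2 groups and include the difference between the groups.

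The D-box activators did not pass. Dbp, the albumin promoter D-site binding protein and the steepest rhythmic output of the loop, had 9.80, 10.02 and 10.19 (lowest, median and highest) after restraint and 10.04, 10.17 and 10.30 in controls. Restrained rats 1, 2 and 5 were below every control, and the other 3 lay within their range. Its difference was -0.15 with a 95% interval from -0.31 to 0.01 (limma adjusted p = 0.33). Tef, the thyrotroph embryonic factor, has 3 probe sets, all compressed here. One of them stood at -2.23 residual SDs (adjusted p = 0.12 over all probe sets), another at -1.28 (0.301), and the one that stands for the gene at -0.321 (limma adjusted p = 0.809 over genes). That last value turned to 1.11 with centred arrays and to 0.745 with quantile normalization. Hlf, the hepatic leukemia factor, gave -0.439 residual SDs (adjusted p = 0.729), with 9.98, 10.28 and 10.53 after restraint and 10.05, 10.45 and 10.61 in controls. Its other 3 probe sets differed by 0.0116, -0.0607 and 1.17 residual SDs. The 1374709_at probe set of Hlf was lowest in restrained rat 2, at 9.11 where the next rat had 9.73.

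Bhlhe40 and Nr1d2, repressors of the loop, had lower means after restraint without passing. Bhlhe40 signals were 8.45, 8.75 and 9.06 (lowest, median and highest) in restrained rats and 8.80, 9.23 and 9.39 in controls. The groups overlapped through controls 3 and 5, at 8.97 and 8.80, and restrained rats 4 and 5, at 9.06 and 8.89. The difference of -0.42 had a 95% interval from -0.72 to -0.13, and an adjusted p of 0.17 over all genes in limma. Nr1d2, which encodes REV-ERB beta, differed by -0.08 (interval -0.21 to 0.05, limma adjusted p = 0.518), with 10.31 to 10.56 after restraint and 10.35 to 10.68 in controls. Its other 2 probe sets were compressed, at -1.72 and -1.56 residual SDs (adjusted p = 0.2 and 0.233 over all probe sets). All 3 probe sets of Nr1d2 thus had the same sign.

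The activators Rora and Npas2 had nearly equal group means. Rora, a ROR nuclear receptor that is also abundant in the thalamus, had 9.74, 10.03 and 10.72 (lowest, median and highest) after restraint and 9.42, 10.21 and 10.61 in controls. It was the most variable of the 10 on the log2 scale, and its interval ran from -0.57 to 0.56 (limma adjusted p = 0.996). The sign of that difference turned in 7 of the 12 fits without 1 array and under both scalings, at 0.0111 and 0.00898 residual SDs. Npas2, the partner of BMAL1 best known from the forebrain, differed by 0.03 (interval -0.12 to 0.19, adjusted p = 0.828). In the fit over all 31042 probe sets 1 of the 20 passed, the same Per3 probe set (adjusted p = 0.0306), against 0.554% of all probe sets.

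**Figure D3:**
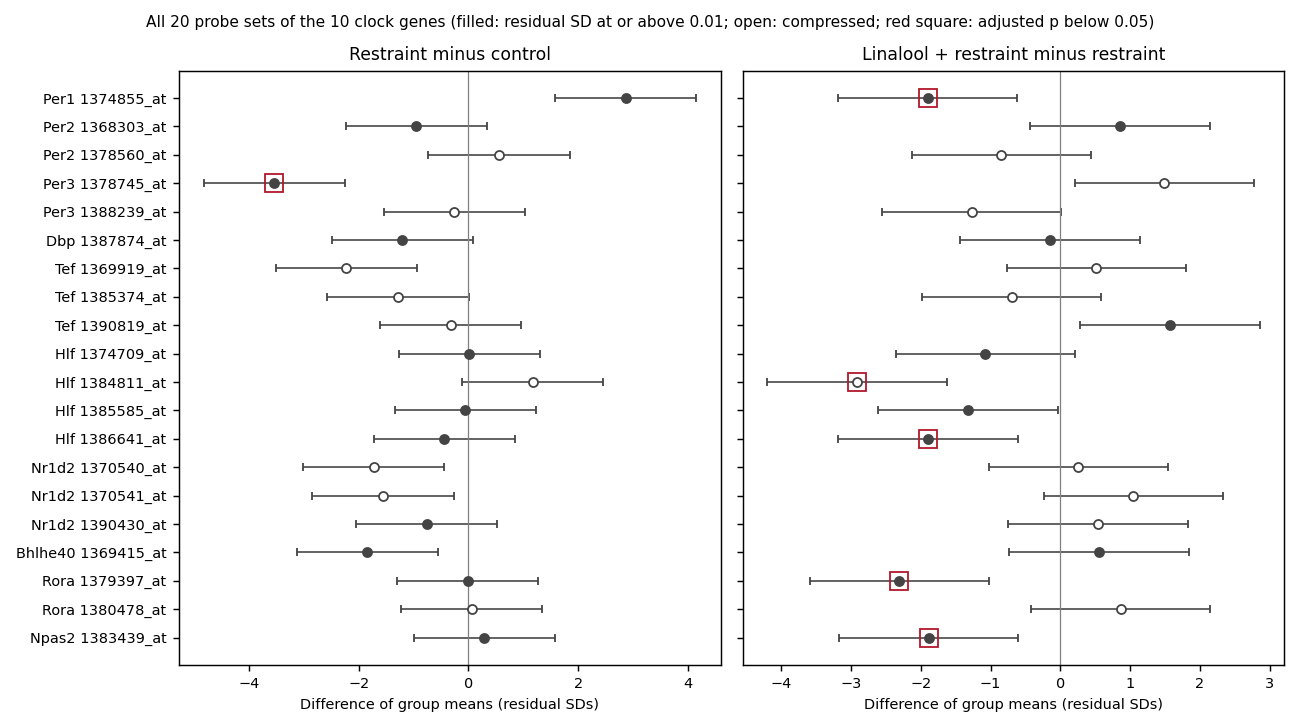
Difference of group means in residual SDs (horizontal axes) with 95% intervals for all 20 probe sets of the 10 clock genes, restraint minus control on the left and linalool plus restraint minus restraint on the right. Open points are compressed, and red squares mark a limma adjusted p below 0.05 over all probe sets: 1 of 20 on the left and 5 of 20 on the right. The probe sets of 1 gene do not always share a sign.

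Of 17 other measured clock genes none passed by limma or by an ordinary t, while 4 had an unadjusted limma p under 0.05, as did 2270 of all 14217 genes. Usp2, a deubiquitinase that acts on clock proteins, was above every control in all 6 restrained rats (2.66 residual SDs, limma adjusted p = 0.0741). Nfil3, the D-box repressor that opposes Dbp, differed by 1.82 residual SDs (adjusted p = 0.177), and by 3.45 without restrained rat 6, where it passed (adjusted p = 0.0455). Csnk1a1, a casein kinase, stood at -1.35 residual SDs (adjusted p = 0.284) and Bmal2, a paralogue of Bmal1, at 1.29 (0.3). The median over the 17 was -0.254 residual SDs, and 13 of them were compressed, Bmal1, Clock, Cry1, Cry2 and Nr1d1 among them.

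Marker genes of neighbouring tissue were read in the same arrays. Scores are means over a list in SDs about the mean of the 12 arrays. All 12 meningeal markers had lower means after restraint and none passed, although 8 had an unadjusted limma p under 0.05, as did 2270 of all 14217 genes. Their score lay between -0.78 and -0.292 in restrained rats and between -0.943 and 1.95 in controls, with 1.73 and 1.95 in controls 6 and 5. Of 8 endothelial markers 1 rose (Slc2a1) and 2 fell (Kdr and Slco1c1), where 0.485% of all genes were called higher and 0.225% lower. Endothelial scores ran from -0.976 to 0.152 after restraint and from -0.662 to 0.875 in controls. None of the 9 measured suprachiasmatic markers passed or had an unadjusted p under 0.05 (scores -0.552 to 0.64 after restraint and -0.153 to 0.192 in controls), and the same held for the 10 hypothalamic ones (-0.606 to 0.655 after restraint and -1.06 to 0.862 in controls). Vip, Grp, Prok2 and Six6, which mark the suprachiasmatic nucleus, had signals of 8.69, 7.80, 7.22 and 7.25 after restraint, and 6 of the 9 were compressed. Pmch and Hcrt, peptide genes of the lateral hypothalamus, had 12.32 and 9.63, while Pomc and Sim1, markers of the arcuate and paraventricular nuclei, had 7.43 and 6.82 and were compressed. Of the 7 thalamic markers other than Rora none passed and 1 had an unadjusted p under 0.05, with scores from -1.13 to 1.14 after restraint and from -1.59 to 0.784 in controls. None of 6 pituitary and 5 choroid plexus markers passed or had an unadjusted p under 0.05. Pituitary scores ran from -0.47 to 1.08 after restraint and from -0.905 to 0.672 in controls. Those of choroid plexus ran from -0.408 to 1.28 and from -0.919 to 1.5. The part of these tissues in the values of the clock genes was not tested.

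Linalool under restraint was then compared with restraint alone, which asks whether the odour moved the same genes. Rora, Hlf, Npas2 and Per1 were lower with linalool, and no member was higher past the threshold. These 4 of 10 stand against 29.7% of all genes called in either direction and 9.71% called lower. None of the 10 had groups without overlap, where 14.2% of all genes did. The median difference of the 10 was 0.195 residual SDs, beside 0.223 for all genes, and 5 of the 10 means were higher and 5 lower.

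**Figure D4:**
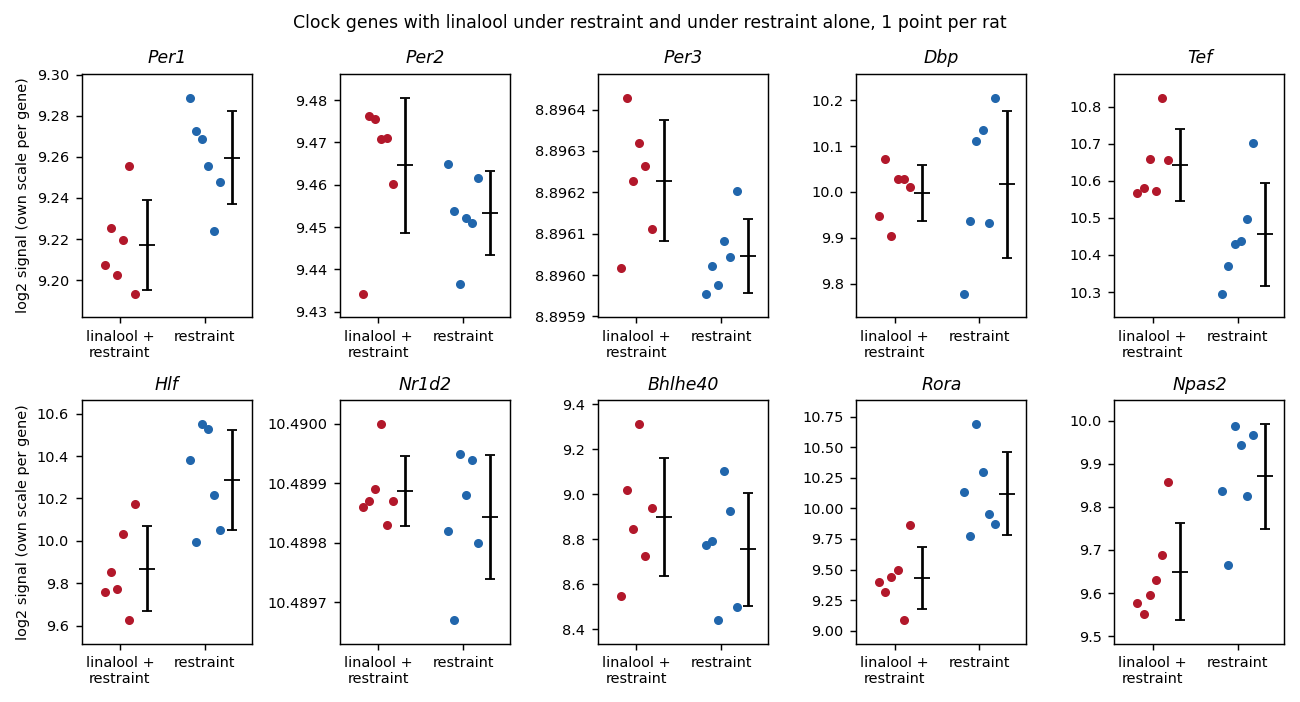
Log2 signal (vertical axis, a separate scale for each gene) of the probe set that stands for each clock gene, in 6 rats given linalool under restraint (red) and 6 restrained without odour (blue), 1 point per rat, with bars for mean and SD. Rora, Hlf, Npas2 and Per1 are lower on average with linalool, and all 10 genes overlap. Per3 and Nr1d2 are compressed, as their narrow axes show.

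Rora (probe set 1379397_at) had signals of 9.09, 9.42 and 9.86 (lowest, median and highest) with linalool, against 9.78, 10.04 and 10.69 under restraint alone. Of the linalool rats 5 lay below every restraint rat, and rat 6, at 9.86, lay above 1 of them. Means were 9.43 ± 0.254 with linalool and 10.12 ± 0.337 without (SD, n = 6 each). The difference was -0.69 (SE 0.169, limma adjusted p = 0.0122), and the call held in all 12 fits without 1 array (adjusted p from 0.00792 to 0.0283). The other Rora probe set was compressed and went the other way in its mean (0.861 residual SDs, adjusted p = 0.299 over all probe sets).

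Hlf had lower means with linalool in all 4 of its probe sets, 2 of which passed over all probe sets. The one that stands for the gene had 9.63, 9.81 and 10.18 with linalool, against 9.99, 10.30 and 10.55 under restraint alone. Linalool rats 4 and 6, the highest of their group, overlapped with the restraint rats. Its difference was -0.42 (SE 0.124, limma adjusted p = 0.0286). The compressed probe set 1384811_at differed most in residual SDs, at -2.91 (limma adjusted p = 0.00477 over all probe sets). Of the 20 it was the only one whose groups did not overlap, where 14.2% of all genes had such groups. The remaining 2 probe sets of Hlf stood at -1.08 and -1.33 residual SDs (limma adjusted p = 0.195 and 0.113). The call of the gene was lost without restraint rats 1, 3 and 4 (limma adjusted p = 0.0576, 0.0606 and 0.0607) and without linalool rats 1, 2, 3 and 5 (0.0582, 0.0539, 0.0549 and 0.0577), with the size from -2.36 to -1.72 residual SDs over the 12 fits. It was also lost with the mean of its probe sets (adjusted p = 0.0564).

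Npas2 had 9.55, 9.61 and 9.86 (lowest, median and highest) with linalool, against 9.66, 9.89 and 9.99 under restraint alone. Restraint rat 2 was low, at 9.66, and linalool rat 6 was high, at 9.86. The difference was -0.22 (SE 0.0663, limma adjusted p = 0.0292). That call did not survive leaving out restraint rats 3, 4 or 6 (limma adjusted p = 0.0631, 0.0616 and 0.0593) or linalool rats 1, 2, 3 or 4 (0.0602, 0.0632, 0.0561 and 0.0531). Quantile normalization gave an adjusted p of 0.0552.

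Rora is itself on the list of thalamic markers, and the other 7 are set beside it. In their means 6 of the 7 were lower with linalool, and 1 passed, Ntng1, which encodes netrin-G1 (-2.16 residual SDs, limma adjusted p = 0.0163). Over all genes 9.71% were called lower. Prkcd, a protein kinase C abundant in the thalamus, differed by -1.60 residual SDs (adjusted p = 0.0555). The score of the 7 lay between -1.25 and 0.186 with linalool and between -1.04 and 1.39 under restraint alone. Restraint rats 3 and 4, at 1.32 and 1.39, had the 2 highest values of Rora and Hlf, and restraint rat 2, at -1.04, had the lowest value of Rora, Hlf and Npas2 in its group. Other arrays did not follow that order. Restraint rat 6, at 0.917, had 9.87 for Rora and 10.05 for Hlf, next to the lowest of its group in both. Linalool rats 1 and 4, at 0.00592 and 0.0178, had Rora signals of 9.40 and 9.50, where restraint rat 5, at 0.0913, had 9.95. How far thalamic tissue in the block entered these values was not tested. The genes most like Rora over the 12 arrays were Ogfrl1 (Pearson r = 0.967), Hlf (0.957), Gabra4 (0.955), Gas6 (0.955) and Hspa12a (0.954), and the value for Npas2 was 0.838. Per3, Tef and Per2 ran opposite to Rora (r = -0.678, -0.659 and -0.552). These values again share the group difference.

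**Figure D5:**
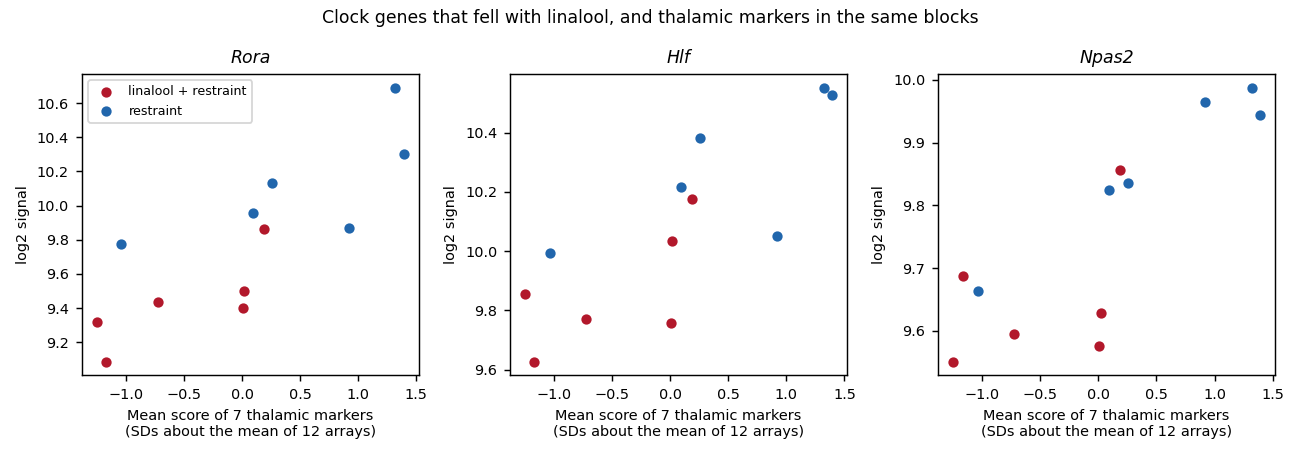
Log2 signal of Rora, Hlf and Npas2 (vertical axes) against the mean score of 7 thalamic markers in the same block (horizontal axes, in SDs about the mean of 12 arrays), 6 linalool rats (red) and 6 restraint rats (blue). Linalool rats have scores from -1.25 to 0.186 and restraint rats from -1.04 to 1.39. Restraint rats 3 and 4, with the highest scores, have the highest signals of Rora and Hlf. Restraint rat 6, at 0.917, lies low in its group for both genes.

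Per1 had 9.19, 9.21 and 9.26 (lowest, median and highest) with linalool, against 9.22, 9.26 and 9.29 under restraint alone. Linalool rat 5 was high within its group and overlapped with the restraint rats, and restraint rat 5 was the lowest of the other. The difference was -0.04 (SE 0.0126, limma adjusted p = 0.0283) on a scale narrower than in the first set, where the same restraint rats had an SD 3.13 times as large. In residual SDs it was -1.90. The call was lost without restraint rats 1, 2 or 3 (limma adjusted p = 0.0567, 0.054 and 0.059), without linalool rats 1, 3 or 6 (0.0571, 0.0561 and 0.0575) and with quantile normalization (0.052). None of the glucocorticoid-induced genes set beside it passed as lower, though 5 of the 11 means were lower and 6 higher. Of the 11, 1 rose (Tsc22d3, 1.95 residual SDs, limma adjusted p = 0.0257) and 10 did not pass, with a median of 0.0942. In this set 20% of all genes were called higher. The Tsc22d3 call was lost without linalool rat 5 (adjusted p = 0.0516) and with quantile normalization (0.0558). Sgk1 differed by -0.145 residual SDs (adjusted p = 0.873), Klf9 by -0.143 (0.874) and Fkbp5 by 0.657 (0.418). With the mean of its probe sets Klf9 stood at 1.95 and passed (adjusted p = 0.025). Among 10 activity-dependent genes 1 rose, the cyclic AMP response modulator Crem (2.21 residual SDs, adjusted p = 0.0153, compressed), while Fos and Nr4a1 stood at -0.051 and 0.874 residual SDs (adjusted p = 0.957 and 0.279).

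By the test of the difference in this set, Per1 stood below 5 of the 9 other members, Tef, Per3, Per2, Bhlhe40 and Nr1d2, where 54.1% of all genes differed from Per1. The distance was -2.63 SDs from Tef, -2.59 from Per3 and -2.19 from Per2 (SE 0.663 each, limma adjusted p = 0.000346, 0.000417 and 0.00281). From Hlf, Npas2 and Rora it was -0.00139, -0.0048 and 0.12 (limma adjusted p = 0.999, 0.996 and 0.907). With an ordinary t 3 members passed, Per2, Per3 and Tef, and 40.1% of all genes. The difference from Tsc22d3 was -2.78 SDs and that from Sgk1 -1.23 (limma adjusted p = 0.000169 and 0.106). No ordinary t was read for these genes. The common variance and the cap on the change apply in this set as well.

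Tef and the compressed Period and REV-ERB genes did not pass. Tef had signals of 10.57, 10.62 and 10.83 with linalool and 10.30, 10.43 and 10.70 under restraint alone, with linalool rat 5 and restraint rat 6 the highest of their groups. The difference was 0.19 (95% interval 0.03 to 0.34, limma adjusted p = 0.0603). It passed without restraint rat 6 (2.67 residual SDs, adjusted p = 0.0101), and the other 2 probe sets of Tef differed by 0.516 and -0.698 residual SDs. Per3 differed by 1.49 residual SDs (adjusted p = 0.0753), and by -0.383 with the mean of its 2 probe sets. The difference passed without restraint rat 6 (adjusted p = 0.0465) or linalool rat 1 (0.0264). Per2 differed by 0.852 residual SDs (adjusted p = 0.29), and passed without linalool rat 1 (2.03, adjusted p = 0.0323), the lowest array. Nr1d2 had 0.537 residual SDs (adjusted p = 0.526) and positive means in all 3 probe sets.

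Dbp and Bhlhe40 were measured on nearly the same scale in both sets and overlapped widely. Dbp had 9.90, 10.02 and 10.07 with linalool and 9.78, 10.02 and 10.21 under restraint alone, a difference of -0.02 (interval -0.17 to 0.14, limma adjusted p = 0.87). Its SD was 0.0611 with linalool and 0.16 without. Bhlhe40 had 8.55, 8.89 and 9.31 with linalool and 8.44, 8.78 and 9.10 without, a difference of 0.14 (interval -0.19 to 0.47, adjusted p = 0.503). In the fit over all probe sets 5 of the 20 passed, all lower: 1 each of Per1, Rora and Npas2 and 2 of Hlf. That compares with 25% of all probe sets called and 10.8% called lower.

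Of the 17 other clock genes 3 were lower with linalool, none was higher and 14 did not pass. Over all genes 9.71% were called lower and 20% higher. Gsk3b, a kinase that acts on several clock proteins, fell by 0.27 on the log2 scale (SE 0.0729, limma adjusted p = 0.0176). Fbxw11, a ubiquitin ligase subunit that recognises Period proteins, stood at -2.42 residual SDs (adjusted p = 0.0112) and Bmal2 at -1.82 (0.0347), both compressed. With arrays centred on their medians they stood at 1.43 and 1.40, and with quantile normalization at -0.938 and 0.315. The Bmal2 call was lost without restraint rats 1, 2, 3 or 5 (limma adjusted p = 0.071, 0.0532, 0.0707 and 0.0649) and linalool rats 1, 4 or 5 (0.0673, 0.0572 and 0.0589). Btrc, the paralogue of Fbxw11, differed by -1.51 residual SDs (adjusted p = 0.0694) and passed without restraint rat 6 (-1.81, 0.0478) or linalool rat 6 (-2.17, 0.0244). None of the 9 suprachiasmatic markers passed, while 2 had an unadjusted p under 0.05, as did 5805 of all 14217 genes. Their scores were -0.912 to 0.387 with linalool and -0.424 to 0.722 without. Of 10 hypothalamic markers 2 rose, Npy and Hdc (2.61 and 3.31 residual SDs, limma adjusted p = 0.00662 and 0.00202), where 20% of all genes were called higher. Among 12 meningeal markers 1 rose, as did 1 of 8 endothelial ones, and none of either fell. Of 6 pituitary markers 1 fell, where 9.71% of all genes were called lower, and none of 5 choroid plexus markers passed.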

How the data were processed

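Values are log2 signals per probe set, deposited by the authors, from a 3′ expression array hybridised with biotin-labelled cRNA made from 500 ng of total RNA, per the labels' protocols. Normalization in 2 sets is stated in the series design text, while no source used here names the method of summarization or normalization. The log2 scale was read from the range of values, 5.59 to 14.93. All 24 columns were used. Of 31099 probe sets, 57 array controls were left out. Another 20826 had 1 symbol, and each gene was represented by its brightest probe set, judged by the mean of the 24 columns. Symbols were checked by gene identifier (20758 matched, 0 changed).

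limma 3.58.1 (lmFit, then eBayes, with two-sided tests and no level filter) ran under R 4.3.3 inside each set, with Benjamini-Hochberg adjustment over 14217 genes, or over 31042 probe sets where a single probe set is named. Differences from Per1 were fitted over 14216 genes. The 95% intervals use the residual SD of the gene. The number of arrays limits the precision. The fits were tested on simulated data. The labels describe separate rats, so p-values measure the spread between arrays of different animals.

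The members and lists were chosen with earlier results of these data known. All members are named with every probe set. Of the other clock genes, those past the threshold and the 4 with the smallest p in each comparison are named, and Sgk1, Fkbp5, Tsc22d3, Klf9, Fos and Nr4a1 always. Crem, Arc, Ntng1, Prkcd, Npy, Hdc, Slc2a1, Kdr and Slco1c1 were named after their values were seen, as were the listed marker genes. Alternatives were 2 scalings, the mean of probe sets, a filter on level, an ordinary t, division by the SD, the replicate number as a block, and each array left out. Same-numbered rats of the 2 groups are different animals. Their deviations from the group means correlated over genes at 0.0933 to 0.238 in the first set and at -0.1 to 0.188 in the second. Every value of the first set was thus positive. No label used here states a pairing, so the numbers were not taken as pairs. What same-numbered arrays share was not tested.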

Additional observations from a re-analysis of the deposited data

Results flagged for a closer look

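Of 80 groups of 6 arrays examined (20 probe sets in 4 groups), 5 held an array far from the others, judged by the gap to the nearest array as a share of the group's range, where chance gives about 1 in 20. Control 1 was the lowest for Per1, at 8.97 against 9.12 for the next, a gap of 0.707 of the range. Restraint rat 2 was the lowest for the Hlf probe set 1374709_at in both sets, at 9.11 against 9.73 (0.745) and at 9.18 against 9.70 (0.67), the same array counted in each. Linalool rat 5 was the highest for Tef (probe set 1390819_at), at 10.83 against 10.66 (0.648), and the lowest for the compressed Nr1d2 probe set 1370540_at (0.677).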

How the results depend on the processing

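In the comparison of restraint with control, the number of the 10 clock genes called was 1 (Per3). It was 2 with centred arrays, with quantile normalization and with low genes left out, each time with Per1 added. The count was 0 with each gene divided by its SD (where 0 of all genes were called, against 101), 0 without controls 5 and 6 and 0 with the replicate number as a block. Leaving out 1 array gave 0 to 1, and 0 to 1 of the other clock genes. Per3 had a limma adjusted p of 0.28 after division by the SD and of 0.0802 with the replicate block (-6.37 residual SDs). Sgk1 and Klf9 both had 0.28 after division by the SD, and with the block Sgk1 had 0.121 and Klf9 0.0359. The block also gave 0 of 20 probe sets, against 1. Over all genes the block gave 9 calls, quantile normalization 55, centred arrays 61, and fits without 1 array 26 to 133, and the fit without controls 5 and 6 gave 3.

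With linalool the number of the 10 called was 4. It was 8 with centred arrays (4 higher), 2 with quantile normalization (Hlf and Rora), 2 with the replicate block (Rora and Npas2) and 1 to 5 without 1 array. Other clock genes called numbered 3, against 16 with centred arrays, 1 with quantile normalization and 6 with the mean of probe sets, and 2 to 4 without 1 array. Probe sets called numbered 5, against 17 with centred arrays, 1 with quantile normalization and 3 with the replicate block. Centring called 13220 of all genes, 95.3% of them higher, and quantile normalization 1573, 64.4% higher, against 4229 and 67.4%. Members that differed from Per1 numbered 5, or 3 by the ordinary t, and 4 to 6 without 1 array. For restraint against control that number was 8, and 7 to 9 without 1 array.

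Signs turned for some genes that did not pass. After restraint Tef stood at 1.11, 0.745 and 0.00418 with centred arrays, quantile normalization and without controls 5 and 6, and Rora at 0.0111 and 0.00898 under both scalings. Without 1 array Tef ranged from -0.692 to 0.00608 and Rora from -0.366 to 0.227. With linalool, Per3 stood at -0.383 and Klf9 at 1.95 with the mean of probe sets, and Fos at 0.00278 with centred arrays. Fbxw11 (1.43 with centred arrays) and Bmal2 (1.40, and 0.315 with quantile normalization) turned although they had passed. Without 1 array the ranges that crossed 0 were -0.696 to 0.186 for Dbp, -0.807 to 0.119 for Sgk1, -0.588 to 0.2 for Klf9 and -0.355 to 0.356 for Fos. Centring moves every gene of an array by the array median. The medians lay between 8.131 and 8.142 with linalool and between 8.134 and 8.153 under restraint alone. Fbxw11 and Bmal2 had residual SDs of only 6.92e-05 and 0.000168 in that set. The cause of the turned signs was not tested. Same-numbered rats correlated best with each other in 2 of 6 cases in each set. No label used here states that the replicate numbers pair the rats, and what same-numbered arrays share was not tested. The block also ended the calls of Per1 (adjusted p = 0.109), Hlf (0.0799) and Gsk3b (0.0838) with linalool.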
